A study of Mus musculus with 22 samples.

Results

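The comparison described here is that of the phosphorylated-S6 immunoprecipitate (IP) between MCH-hM3Dq and control mice. Its members are 11 libraries of the 22 in the series, 1 IP from each of 4 MCH-hM3Dq mice (numbered 1, 3, 4 and 5) and 1 from each of 7 control mice (numbered 1 to 7), chosen by fraction and genotype alone. The design names 5 hM3Dq mice, and the 4 with libraries were analysed here. All mice of both genotypes were C57BL/6N, 10 to 13 weeks old, had been fasted for 12 h and had received clozapine N-oxide (CNO) for 1 h, so the control mice carry the fast and the ligand too. The tissue was the arcuate nucleus with the median eminence, cut from the hypothalamus. The labels do not say what alleles the control mice carry or which cells beyond the MCH name drive the receptor.

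MCH neurons make melanin-concentrating hormone, a peptide that promotes feeding, and their cell bodies lie mainly in the lateral hypothalamus and zona incerta, beside the arcuate nucleus. hM3Dq is an engineered receptor derived from the human muscarinic M3 receptor. It couples to Gq and depolarizes neurons when CNO binds. Ribosomal protein S6 becomes phosphorylated when neurons are active, so an antibody to S6 phosphorylated at 244 and 247 enriches ribosomes, and the messenger RNA on them, from recently active cells. The comparison of the IP between genotypes asks which transcripts on these ribosomes differ when the receptor is present.

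Between the genotypes 1 of 13531 genes tested passed the test, and it was lower in hM3Dq IP. Values were compared as log2(FPKM + 1), where FPKM is fragments scaled to transcript length and library size, with limma, and a gene was called at a Benjamini-Hochberg adjusted p under 0.05. The share called was 0.00739%. An unadjusted p under 0.05 was reached by 707 genes, or 5.23%, of which 326 (2.41%) were higher and 381 (2.82%) lower in hM3Dq IP. The groups did not overlap in 122 genes, or 0.902%, with 62 higher (0.458%) and 60 lower (0.443%). Fold changes were split almost evenly around 0, with 49% positive. The called gene and the small RNAs most like it are described first, then the messenger RNAs with the smallest p-values, then the gene groups that bear on activated neurons and on the tissue.

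The called gene was Gm25492 (ENSMUSG00000088008), annotated as a small Cajal body-specific RNA. RNAs of this class stay in the nucleus, where they guide the modification of spliceosomal RNAs, while the related small nucleolar RNAs guide that of ribosomal RNA. Members of the H/ACA kind end in the box ACA, set 3 bases before the 3′ end, and direct the conversion of uridine to pseudouridine. The 5 sequences below are those of the called RNA and of the 4 other small RNAs with an ACA in that place among the 9 small nucleolar and Cajal body RNAs tested, shown because they hold the largest differences of the class. They come from the GENCODE M21 transcripts (GRCm38), are written 5′ to 3′ as DNA letters of the transcribed strand, and have the ACA in capitals.
Gm25492: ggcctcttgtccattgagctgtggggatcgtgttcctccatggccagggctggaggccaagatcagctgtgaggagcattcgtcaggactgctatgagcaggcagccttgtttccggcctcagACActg
Gm25776: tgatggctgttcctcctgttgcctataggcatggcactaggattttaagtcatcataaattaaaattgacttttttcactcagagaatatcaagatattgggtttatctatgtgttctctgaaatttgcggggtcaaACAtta
Gm25848: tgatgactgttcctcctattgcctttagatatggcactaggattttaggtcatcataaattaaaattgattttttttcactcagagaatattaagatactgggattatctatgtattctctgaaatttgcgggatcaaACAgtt
Gm26397: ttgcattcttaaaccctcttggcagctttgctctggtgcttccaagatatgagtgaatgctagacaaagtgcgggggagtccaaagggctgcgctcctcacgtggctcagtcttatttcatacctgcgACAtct
Gm22504: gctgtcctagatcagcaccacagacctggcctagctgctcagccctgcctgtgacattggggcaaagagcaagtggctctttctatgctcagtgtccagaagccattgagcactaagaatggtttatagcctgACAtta

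An ACA ended in this place in 301 of the 1558 transcripts of both classes in the annotation, or 19.3%, counting the transcribed strand only. Gm25492 spans chr5:135053988-135054116 on the minus strand, 129 bases within an intron of Bud23 on the same strand. Gm25776 (chr12:91573430-91573572, an intron of Gtf2a1), Gm25848 (chr16:32243712-32243855, an intron of Fbxo45) and Gm26397 (chr8:126944847-126944980, an intron of Tomm20) are small nucleolar RNAs, likewise on the minus strand and in the sense of their host. Gm25776 and Gm25848 are near-identical, with 129 identical bases in 144 aligned columns (89.6%), so the authors' counting could have split reads between them. Gm22504 (chr7:105642338-105642476) lies opposite to an exon of Timm10b, and whether the counting used strand is not given in the sources used here.

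Gm25492 was at or near 0 in the hM3Dq IPs and present in every control IP. Its FPKM was listed as 0 in hM3Dq mice 1 and 4, 1.39 in mouse 3 and 4.82 in mouse 5, against 16.6, 21.9, 7.86, 16.7, 20.5, 26.8 and 10.5 in control mice 1 to 7. No hM3Dq value reached the lowest control value. Its log2 fold change was −3.15 (SE 0.444, 95% confidence interval −4.10 to −2.20, limma adjusted p = 0.0459, lower in 4 of 4 hM3Dq mice than in any control mouse). In the input, RNA of the same homogenates taken before the antibody, it stood between 27.0 and 119 FPKM in hM3Dq mice and between 61.3 and 157 FPKM in control mice, a difference of −0.58 in log2 units (SE 0.341, adjusted p = 0.9997 by limma). The IP difference exceeded the input difference by −2.57 (SE 0.723), which did not pass over all genes (adjusted p = 0.999 by limma). Relative to the input of the same mouse, the groups overlapped. The IP FPKM was 0%, 1.17%, 0% and 17.8% of the input FPKM in hM3Dq mice 1, 3, 4 and 5, against 7.20% to 27.2% in control mice. Mouse 5, the hM3Dq mouse inside the control range, had the lowest input, at 27.0 FPKM. The host gene Bud23, a methyltransferase of 18S ribosomal RNA, had 5.98 to 10.2 FPKM in hM3Dq IPs and 5.08 to 19.9 in control IPs, with a log2 fold change of −0.27 (SE 0.305).

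The call rested close to its threshold. It was kept in 11 of 26 other fits, and lost without hM3Dq mouse 1, 3 or 4, without control mouse 1, 2, 4, 6 or 7, and without control mice 1, 4 and 5 together, while the sign was negative in all 26. The log2 fold change was −1.76 with a pseudocount of 5 and −4.96 with one of 0.1, since the hM3Dq values lie near 0.

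The other small RNAs with an ACA were named after their values were seen. Gm25776 had 0, 3.27, 1.11 and 1.26 FPKM in hM3Dq IPs, against 28.0, 29.0, 3.53, 48.8, 11.1, 10.97 and 26.7 in control IPs. The groups did not overlap, and the difference of −3.13 in log2 units (SE 0.546) did not pass (adjusted p = 0.248 by limma). The near-identical Gm25848 had 0 to 7.50 FPKM in hM3Dq IPs and 3.92 to 27.5 in control IPs, with overlapping groups and a log2 fold change of −2.15. Gm26397 had 0 to 7.61 FPKM in hM3Dq IPs and 0 to 25.9 in control IPs (log2 fold change −1.74), with control mouse 3 at 0. Gm22504 went the other way at 18.7, 5.77, 28.4 and 9.58 FPKM in hM3Dq IPs, against 0.0919, 0, 2.99, 2.56, 19.3, 0 and 0 in control IPs (log2 fold change 2.65, limma adjusted p = 0.81). Control mouse 5 alone overlapped the hM3Dq values of this RNA. Of the 9 small nucleolar and Cajal body RNAs tested, 1 was called, 7 were lower and 2 higher, and the 4 without an ACA were Scarna2 (−1.24), Gm22009 (−0.25), Gm22771 (−0.79) and Snord91a (1.66).

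Among longer noncoding RNAs, Rn7sk and Rmrp, and the locus of Ccnb1ip1, did not pass the test. These 3 were picked with their values known. Rn7sk, the 7SK RNA that holds back transcription elongation factor P-TEFb in the nucleus, had 111, 346, 70.6 and 246 FPKM in hM3Dq IPs, against 582, 597, 398, 1323, 552, 328 and 1019 in control IPs. Only hM3Dq mouse 3 overlapped the controls, and the log2 fold change was −1.93 (SE 0.416, limma adjusted p = 0.491). In each mouse the IP held little of the RNA seen in input: the IP FPKM was 0.184% to 0.953% of the input FPKM in hM3Dq mice and 0.573% to 4.87% in control mice. The input itself differed by 0.04 on the log2 scale. Ccnb1ip1 had 4.47, 11.1, 2.07 and 4.46 FPKM in hM3Dq IPs, against 24.7, 25.3, 21.3, 15.1, 27.2, 8.31 and 25.1 in control IPs (log2 fold change −1.85, limma adjusted p = 0.277). Only hM3Dq mouse 3 and control mouse 6 overlapped. The locus shares sequence on the same strand with Rpph1, the RNA of ribonuclease P, so which of the pair these values measure cannot be told apart. Rmrp, the RNA of ribonuclease MRP, had 0.305 to 1.79 FPKM in hM3Dq IPs and 0 to 33.0 in control IPs (log2 fold change −1.94).

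Over the list of structural noncoding RNAs, which was drawn up with Gm25492, Ccnb1ip1 and Scarna2 on it and earlier results known, 11 members were tested, 1 was called, 9 had negative fold changes and 5 had an unadjusted p under 0.05, all of them lower, with a median of −1.24 against −0.01 over all genes tested. The 2 positive members were Malat1, a nuclear long noncoding RNA (0.79, between 295 and 1226 FPKM in hM3Dq IPs and between 129 and 639 in control IPs), and Mirg (0.22). Bc1, a short RNA of dendrites, was listed at 0 in 2 of 4 hM3Dq IPs and 2 of 7 control IPs (−1.25). The input differed by −0.58 for Gm25492, 0.04 for Rn7sk, 0.12 for Ccnb1ip1 and −0.23 for Rmrp. Why the IP values of these RNAs differed was not tested. For marker genes of cell types in bulk tissue, fewer cells of a type and less RNA per cell cannot be told apart.

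**Figure D1:**
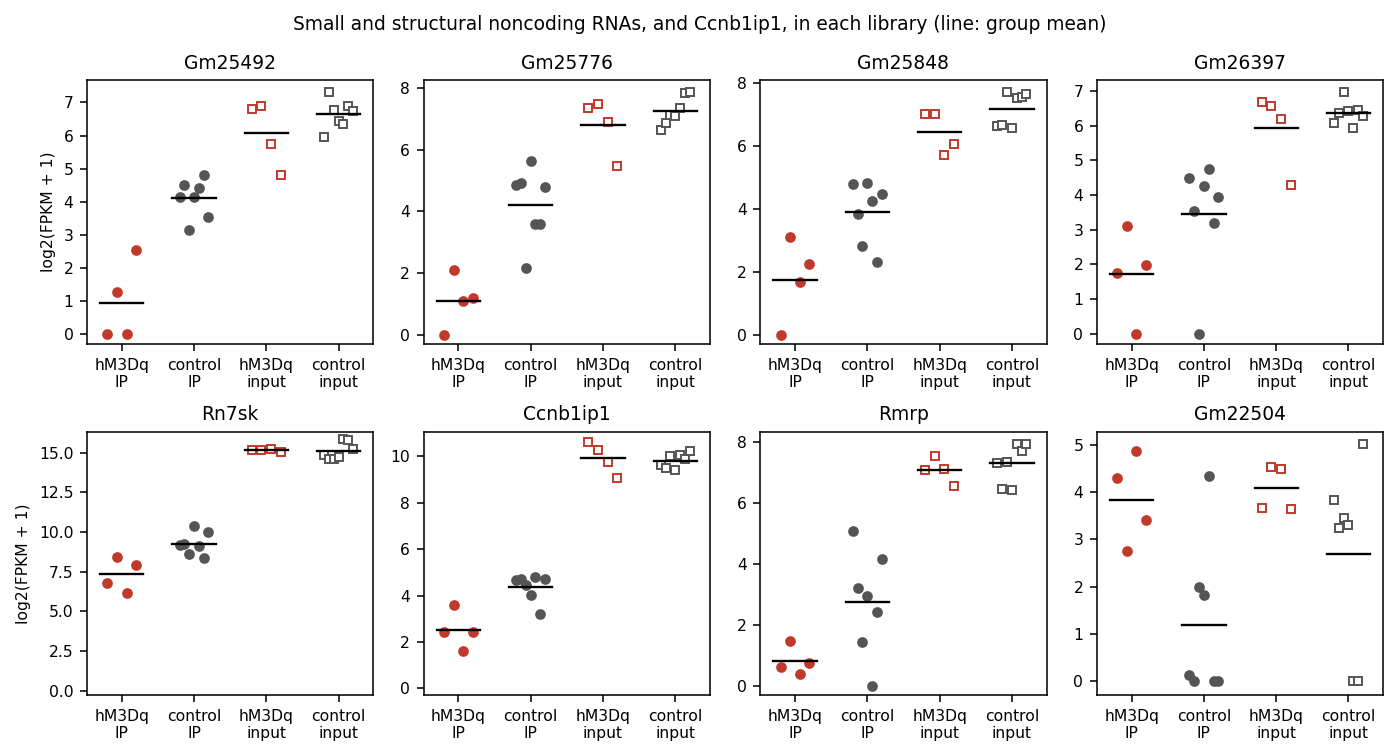
FPKM on the log2(FPKM + 1) scale of 8 genes in every library, with IP as filled circles, input as open squares, hM3Dq in red, control in grey and a line at each group mean. Gm25492, Gm25776, Rn7sk and Ccnb1ip1 lie lower in hM3Dq IP than in control IP, with input differences of −0.58, −0.46, 0.04 and 0.12 in log2 units, while Gm22504 lies higher in hM3Dq IP.

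Among messenger RNAs 0 of 11810 protein-coding genes were called, with 606 at an unadjusted p under 0.05. Nnat (neuronatin, an imprinted endoplasmic reticulum protein of neurons and endocrine cells) had the smallest unadjusted p of them. Nnat had 572, 683, 697 and 512 FPKM in hM3Dq IPs, against 1452, 1432, 1468, 1977, 1978, 725 and 1244 in control IPs. Every hM3Dq IP lay under every control IP, with control mouse 6 nearest. The log2 fold change was −1.20 (SE 0.23, limma adjusted p = 0.277), and in the input it was −0.56 (SE 0.261). Nnat was called without control mouse 6 (adjusted p = 0.016) and with array weights (adjusted p = 0.0256), 2 of its 26 other fits. The gene lies at chr2:157560078-157562522 within an intron of Blcap on the opposite strand.

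The other genes with the smallest p-values among those lower in hM3Dq IP were of several kinds. Mrpl23, a protein of the large mitochondrial ribosomal subunit, had 19.3 to 27.6 FPKM in hM3Dq IPs and 29.8 to 45.8 in control IPs, without overlap (log2 fold change −0.74, SE 0.168, adjusted p = 0.529). Manbal (−0.85), Alg11, a mannosyltransferase of the glycan precursor of N-linked glycosylation (−0.71), and Tmem106c (−1.10) also did not overlap. Alg11 differed by as much in the input (−0.72). Crabp1, which binds retinoic acid in the cytosol, had 10.6, 1.96, 27.8 and 5.90 FPKM in hM3Dq IPs, against 50.4, 26.4, 42.4, 39.1, 10.997, 47.0 and 48.0 in control IPs (−1.96). Its input differed alike (−1.62). Ifitm3, an interferon-induced membrane protein (−2.25), and Myl9, a smooth muscle myosin light chain (−1.36), overlapped between the groups and are taken up with the vascular genes.

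Among the genes higher in hM3Dq IP, those with the smallest p-values did not pass either. Ckap5, a microtubule polymerase, had 135, 83.9, 120 and 71.4 FPKM in hM3Dq IPs, against 46.4, 54.6, 59.1, 38.1, 35.5, 70.6 and 46.2 in control IPs. The lowest hM3Dq value stood just above the highest control value, and the log2 fold change was 1.01 (SE 0.214, adjusted p = 0.491), with 0.28 in the input. Zfp521, a zinc finger transcription regulator, had 21.8 to 29.5 FPKM in hM3Dq IPs and 9.58 to 18.3 in control IPs (0.88, SE 0.2). Dgki, a diacylglycerol kinase that ends the diacylglycerol signal downstream of Gq, had 17.2 to 19.6 FPKM in hM3Dq IPs and 7.65 to 15.3 in control IPs (0.79, SE 0.207, adjusted p = 0.81, input 0.09). Neither overlapped between the groups.

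Chac1, an enzyme that degrades glutathione and is a target of the ATF4 stress response, had 7.89, 7.91, 7.48 and 7.92 FPKM in hM3Dq IPs and 2.00 to 6.43 in control IPs (1.02, SE 0.276). Aak1, a kinase of clathrin-mediated endocytosis (0.44), and Fbxo11, a ubiquitin ligase subunit (0.49), also had groups that did not overlap. Zmat4 (1.03), the transcription factor Zic1 (1.14), the calcium channel subunit Cacnb4 (0.68) and the intronic RNA AC154232.1 (1.97) overlapped. Gm48573, an RNA antisense to an exon of Syndig1l and named after its values were seen, had the highest positive fold change, at 2.72 (SE 0.492, adjusted p = 0.254). It had 7.46, 9.60, 13.2 and 9.14 FPKM in hM3Dq IPs, against values at or near 0 in 5 control IPs and 4.07 and 4.03 in control mice 2 and 5. It was called without control mouse 5 (adjusted p = 0.0457) and with array weights (adjusted p = 0.0256).

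**Figure D2:**
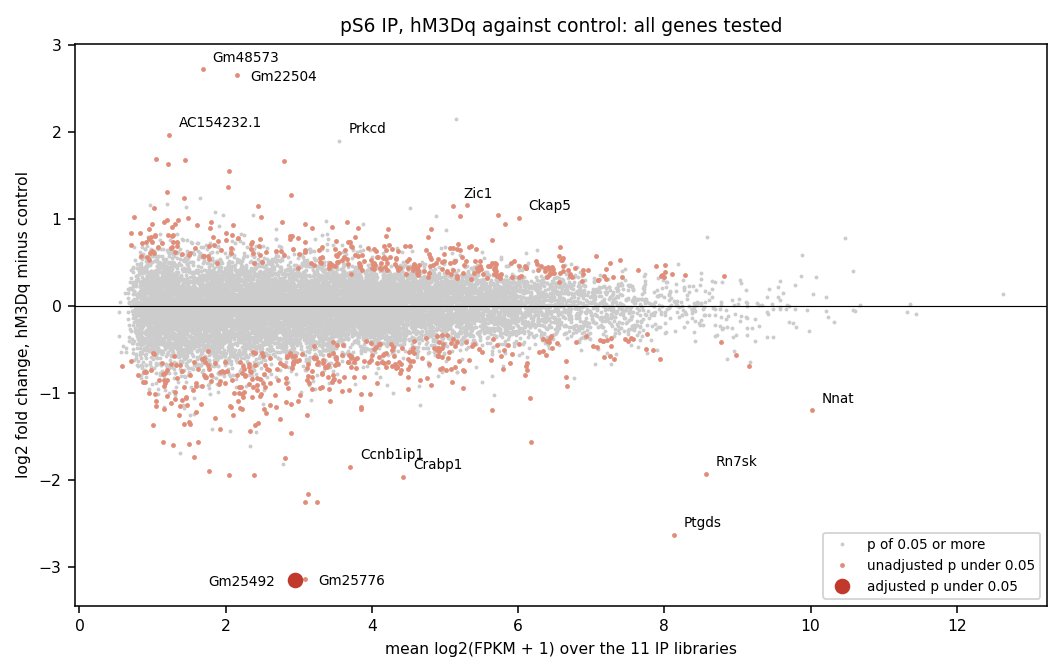
Log2 fold change, hM3Dq minus control, against the mean log2(FPKM + 1) over the 11 IP libraries for all 13531 genes tested, with genes at an unadjusted p under 0.05 in light red and the called gene in dark red. The called gene stands at −3.15, and most genes lie within 1 of 0.

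Genes of the MCH system did not pass the test in the IP. Pmch, the precursor of the hormone, had 301, 61.4, 424 and 330 FPKM in hM3Dq IPs, against 672, 417, 279, 358, 151, 228 and 133 in control IPs. The groups overlapped throughout, with hM3Dq mouse 3 lowest (log2 fold change −0.30, SE 0.488, 95% confidence interval −1.34 to 0.74). The sign of this fold change turned without hM3Dq mouse 3 (0.32). Hcrt, the orexin precursor of neighbouring lateral hypothalamic neurons, had 11.1 to 49.2 FPKM in hM3Dq IPs and 20.8 to 87.7 in control IPs (−0.94). Mchr1, the MCH receptor (−0.36), and Chrm3, the mouse M3 receptor (0.28), did not pass, and the mouse gene does not measure the human-derived transgene, so the genotype labels have no check here. Of the 10 MCH system genes, 0 were called, 4 were positive and 1 (10%, against 5.23% of all genes) had an unadjusted p under 0.05.

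The immediate early genes, transcription factors and effectors switched on within minutes of neuronal activity, did not pass the test either. Of 40 listed, 36 were tested, 0 were called, 24 were positive, and 1 (2.78%, against 5.23% of all genes) had an unadjusted p under 0.05, in the lower direction. Their median log2 fold change was 0.03, or 0.17 without hM3Dq mouse 3. Fos had 14.4, 8.25, 13.7 and 14.0 FPKM in hM3Dq IPs, against 13.0, 15.1, 7.81, 10.7, 2.74, 11.7 and 11.5 in control IPs. Control mouse 5 was lowest, followed by control mouse 3 and hM3Dq mouse 3, and the log2 fold change was 0.35 (95% confidence interval −0.37 to 1.06), or 0.10 without control mouse 5. Egr1 had 126, 58.0, 102 and 83.0 FPKM in hM3Dq IPs and 55.8 to 98.3 in control IPs (0.25, interval −0.17 to 0.68). Jun was at 28.1 to 56.8 FPKM in hM3Dq IPs and 29.2 to 39.98 in control IPs (0.20, interval −0.18 to 0.58).

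The remaining early genes showed the same overlap. Fosb (0.02, interval −0.58 to 0.62), Junb (0.02, −0.79 to 0.83), Arc (0.10, −0.48 to 0.67), Npas4 (0.31, −0.34 to 0.95) and Nr4a1 (−0.35, −1.08 to 0.37) had intervals on both sides of 0. Nr4a2, a nuclear receptor that is both an early gene and a factor of dopamine neurons, was the 1 with an unadjusted p under 0.05, at 3.18 to 8.69 FPKM in hM3Dq IPs and 5.98 to 28.0 in control IPs (−0.93, adjusted p = 0.902). Dusp1, a phosphatase of MAP kinases (0.37), and Homer1, a postsynaptic scaffold with an activity-induced short form (0.34), had positive values that did not pass, and the kinase Sgk1 a negative one (−0.39). Each mouse's mean over the list ran from 2.76 to 3.03 log2 units in hM3Dq IPs and from 2.76 to 3.01 in control IPs.

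**Figure D3:**
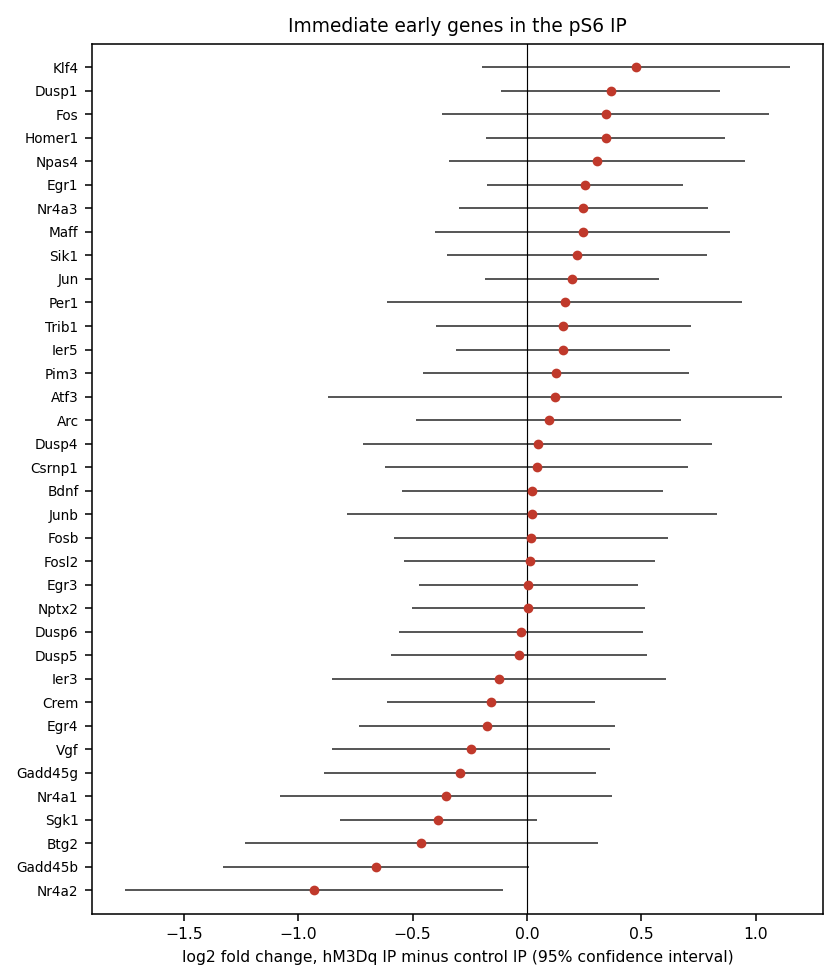
Log2 fold change of the 36 immediate early genes tested, hM3Dq IP minus control IP, with 95% confidence intervals from the fit across all genes. The intervals of all but Nr4a2 include 0, and the values run from −0.93 to 0.48.

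The pathway that the antibody reports on had no called gene. Rps6, the target protein's gene, had 120 to 149 FPKM in hM3Dq IPs and 118 to 244 in control IPs, with control mouse 5 highest (−0.17, SE 0.176). Of 34 tested genes of the mTORC1 and S6 kinase pathway, 0 were called and 11 were positive. An unadjusted p under 0.05 was reached by 2 (5.88%, against 5.23% of all genes), the kinase gene Mapk3 (−0.40) and the translation repressor gene Eif4ebp1 (−0.63). Eif4ebp1 had 0.109 to 0.372 FPKM in hM3Dq IPs and 0.286 to 1.72 in control IPs. It passed the filter of 1 FPKM in 4 or more IPs through control IPs alone, which favoured a lower value in hM3Dq IP. Rps6kb1, which encodes S6 kinase 1, had a log2 fold change of 0.26. Of 19 tested muscarinic and Gq signalling genes 0 were called and 13 were positive, with a median of 0.21, which was 0.05 without hM3Dq mice 3 and 5 and 0.12 without control mouse 5. The list holds Prkcd (1.89), taken up with the thalamic genes. Plcb4, a phospholipase C that Gq activates, had 131, 265, 118 and 212 FPKM in hM3Dq IPs and 86.4 to 143 in control IPs (0.57), and 0.11 remained without hM3Dq mice 3 and 5. Its input differed by as much (0.56).

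Of the neurons of the arcuate nucleus, several marker genes were lower in hM3Dq IP without passing. Agrp, the agouti-related peptide of hunger-promoting neurons, had 38.3, 18.8, 29.7 and 9.47 FPKM in hM3Dq IPs, against 44.9, 48.2, 25.2, 13.2, 68.6, 45.8 and 38.8 in control IPs (−0.76, SE 0.397). The same neurons' Npy, neuropeptide Y, had 137, 38.7, 48.8 and 5.30 FPKM in hM3Dq IPs and 32.8 to 380.2 in control IPs (−1.56). Both were lowest in hM3Dq mouse 5, and without hM3Dq mice 3 and 5 the values were −0.12 for Agrp and −0.37 for Npy. Over the AgRP neuron list 13 genes were tested, 0 called and 11 negative, with a median of −0.34 (−0.01 without hM3Dq mice 3 and 5). Of these, 3 (23.1%, against 5.23% of all genes) had an unadjusted p under 0.05. Lepr, the leptin receptor, had 0.0573 to 0.55 FPKM in hM3Dq IPs and 0.462 to 3.69 in control IPs (−1.09), and passed the filter through control IPs alone. Sst, somatostatin, had 43.1 to 138 FPKM in hM3Dq IPs and 99.1 to 179 in control IPs (−0.91).

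Pomc, the precursor of the satiety peptide alpha-MSH, had 0.996 to 12.6 FPKM in hM3Dq IPs and 4.39 to 26.1 in control IPs (−0.69), and 0 of 15 POMC neuron genes were called. Pomc stood at 0.005 without hM3Dq mice 3 and 5, and the list's median was 0.09 without them, against −0.24 with all mice. Dopamine neuron genes held the largest share of small p-values among the neuronal lists. Of 11 tested, 0 were called, 7 were negative and 4 positive, and the median was −0.69. At an unadjusted p under 0.05, 6 were lower and 1 higher (63.6%, against 5.23% of all genes). Th, tyrosine hydroxylase, which makes the dopamine precursor, had 28.0, 16.3, 29.3 and 36.8 FPKM in hM3Dq IPs, against 81.1, 38.3, 34.2, 45.5, 63.4, 32.6 and 37.3 in control IPs (−0.74, SE 0.263, adjusted p = 0.848). Only hM3Dq mouse 5 overlapped the controls, and the input differed by −0.44.

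Several other genes of dopamine synthesis and storage had the same sign as Th. Ddc, the decarboxylase of the next step (−0.69), Slc18a2, the vesicular monoamine transporter (−0.88), Slc6a3, the dopamine transporter (−1.36), and Gch1, the first enzyme of tetrahydrobiopterin synthesis (−0.86), were lower, while Onecut3, a transcription factor, was higher (0.59). The list's median was −0.39 without control mice 1, 4 and 5 and −0.18 without hM3Dq mice 3 and 5. Those are the mice in which thalamic and meningeal genes stood apart, as described next, and the part of those genes in this result was not tested.

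Marker genes of neighbouring tissue differed between libraries. Genes of the thalamus, a list put together after the values were seen, summed to 136, 1113, 112 and 549.9 FPKM in the IPs of hM3Dq mice 1, 3, 4 and 5, against 127 to 291 in control IPs. The input sums were 77.8, 624, 91.6 and 257 FPKM in the same hM3Dq mice and 60.9 to 188 in control mice. hM3Dq mice 3 and 5 were thus high in both fractions. Prkcd, a protein kinase C of thalamic relay neurons, had 4.70, 248, 3.66 and 80.1 FPKM in hM3Dq IPs, against 40.6 in control mouse 1 and 2.11 to 9.14 in the other control IPs (1.89, SE 0.952), and −0.50 without hM3Dq mice 3 and 5. The thalamic genes Tnnt1 and Shox2 had their highest values in the same hM3Dq mice, at 40.4 and 41.0 FPKM in mouse 3.

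Zic1, Zmat4 and Rora, which had small p-values, were highest in these mice. Zic1 and Rora are themselves on the thalamic list, so their values are part of the sums that set these mice apart. Zmat4 is not on it. Zic1 had 77.4 and 94.4 FPKM in hM3Dq mice 3 and 5, 46.0 and 29.6 in hM3Dq mice 1 and 4, and 15.9 to 32.6 in control IPs. Its input differed by 1.09, against 1.14 in the IP, and its IP fold change was 0.55 without hM3Dq mice 3 and 5. Without these mice Zmat4 stood at 0.47 and Rora, a nuclear receptor of the clock list, at 0.16 (1.16 with all mice). Kcna1, a potassium channel of axons, was high in hM3Dq mouse 3 alone, at 34.8 FPKM, against 12.7 to 14.0 in the other hM3Dq IPs and 7.01 to 14.4 in control IPs, and its fold change was 0.34 without that mouse (0.67 with all mice). Ckap5 stood at 1.37 without them, and Gm25492 at −4.10 (limma adjusted p = 0.00147).

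Genes of the meninges and vessel walls, also put together after the values were seen, were high in 3 control mice. Their summed FPKM was 83.9, 177, 88.8 and 70.2 in hM3Dq IPs, against 2835, 400.3, 108, 1583, 6416, 165 and 145 in control IPs. A single gene, Ptgds, made up most of this sum in every IP (6095 of 6416 FPKM in control mouse 5). Control mice 1, 4 and 5 stood apart, in the input as well, with 831, 715 and 1182 FPKM against 123 to 244 in the other control inputs. Ptgds, the prostaglandin D2 synthase of meninges and choroid plexus, had 68.7, 163, 82.0 and 63.1 FPKM in hM3Dq IPs, against 2655, 360.3, 95.2, 1492, 6095, 138 and 122 in control IPs (−2.63, SE 0.966, adjusted p = 0.848). Igf2, a growth factor of meningeal cells, had 0.409 to 4.61 FPKM in hM3Dq IPs and 0.681 to 154 in control IPs (−2.25). Mgp, an inhibitor of calcification, was at 0.487 FPKM or less in hM3Dq IPs and between 15.5 and 21.7 in control mice 1, 4 and 5, with 3 of the other control IPs listed at 0 (−1.69). Mgp passed the filter through control IPs alone.

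Of 7 tested mural and leptomeningeal genes, 0 were called and 7 were negative, with a median of −1.33, which became −0.28 without control mice 1, 4 and 5. Dcn, decorin, had 0.223 to 0.928 FPKM in hM3Dq IPs and 0.871 to 6.48 in control IPs (−1.33), and passed the filter through control IPs alone. Defining mural markers Pdgfrb, Notch3, Abcc9 and Myh11 were under 1 FPKM in all 11 IPs. Ifitm3 and Myl9 are on the list of meningeal and vessel wall genes put together after the values were seen. Without those 3 control mice Ifitm3 stood at −1.45 and Myl9 at −1.08. Endothelial markers Cldn5, Kdr and Cdh5 were under 1 FPKM in every IP, and the summed endothelial list ran from 17.5 to 26.0 FPKM in hM3Dq IPs and from 19.7 to 53.8 in control IPs. Plvap, a protein of fenestrated capillaries such as those of the median eminence, had 2.04 to 3.69 FPKM in hM3Dq IPs and 0.102 to 6.68 in control IPs (0.16), Vegfa, the endothelial growth factor made by tanycytes, stood at −0.14 and its receptor Flt1 at −0.43.

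Ependymal genes (12 of 12 negative, 0 called, median −0.49) and choroid plexus and erythroid genes (11 of 11 negative, 0 called, median −0.65) were on the lower side. Glial lists leaned the same way with 0 called: astrocyte (14 of 16 negative, median −0.31), oligodendrocyte (13 of 15, −0.24) and microglia genes (15 of 18, −0.25). Oligodendrocyte precursor genes did not (4 of 12 negative, 0 called, median 0.07). The ependymal median was −0.16 without hM3Dq mice 3 and 5, −0.24 without hM3Dq mouse 5 alone and −0.29 without control mouse 3. The choroid plexus and erythroid median was −0.41 without control mice 1, 4 and 5 and −0.32 without control mouse 1 alone. The tubulin-binding gene Tppp3 (−0.48), Fam183b (−0.54), the histidine decarboxylase gene Hdc (−1.29) and the globins Hba-a2 (−0.97) and Hbb-bs (−0.82) had unadjusted p under 0.05. Hdc is also on the list of GABA and glutamate identity genes. It had 0.605 and 0.875 FPKM in the IPs of hM3Dq mice 3 and 5, against 5.77 and 9.01 in hM3Dq mice 1 and 4. Without hM3Dq mice 3 and 5 the fold change of Hdc was −0.17. The input differed by −0.56 for Tppp3, −0.25 for Fam183b and −1.23 for Hdc. Ttr, transthyretin of the choroid plexus, reached 1785 FPKM in control mouse 1 and stayed at 5.75 or less in the other 6 control IPs, against 0.584 to 5.50 in hM3Dq IPs. Tanycyte genes (17 tested, 0 called, median −0.07) lay near 0, with the filament gene Vim at −0.75. The tanycyte factor Rax was under the filter, at 0 to 1.44 FPKM in hM3Dq IPs and 0.0731 to 1.05 in control IPs.

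**Figure D4:**
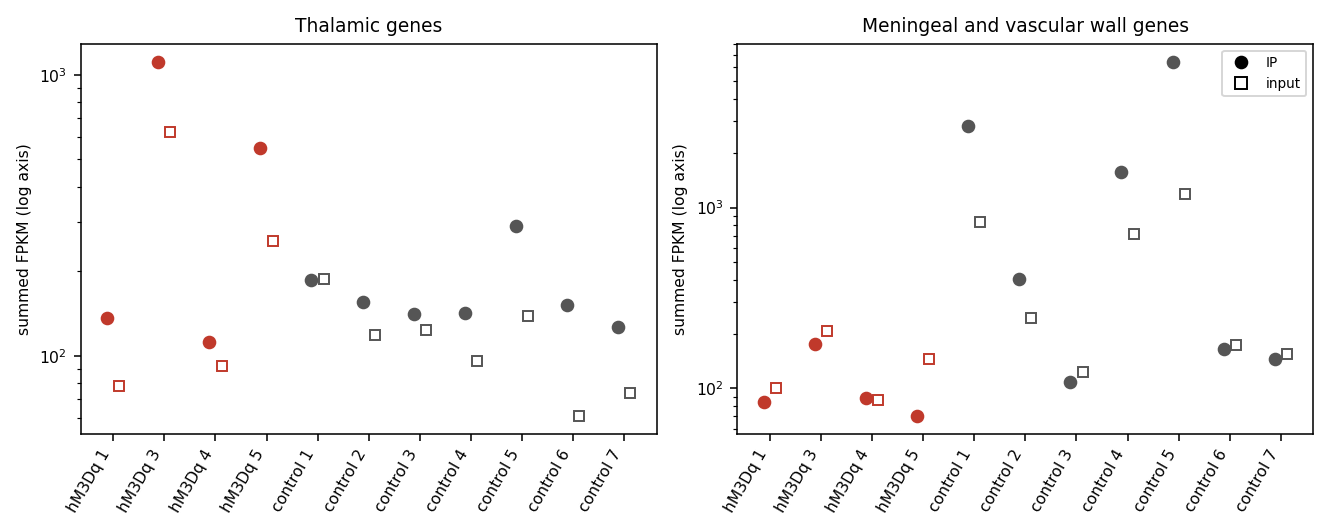
Summed FPKM of 12 thalamic genes and of 9 meningeal and vascular wall genes in each mouse, on a log axis, with IP as filled circles, input as open squares, hM3Dq in red and control in grey. hM3Dq mice 3 and 5 stand highest for the thalamic genes, and control mice 1, 4 and 5 for the meningeal genes, in both fractions. Ptgds makes up most of the meningeal sum in every IP.

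Synaptic genes were mostly on the higher side. Of 33 synaptic vesicle release genes 0 were called and 27 were positive, with a median of 0.22 (0.11 without hM3Dq mice 3 and 5, and 0.11 without control mouse 5). At an unadjusted p under 0.05, 3 were higher and 1 lower (12.1%, against 5.23% of all genes). Syt2, a fast calcium sensor of release, had 7.79 to 13.8 FPKM in hM3Dq IPs and 2.30 to 8.61 in control IPs (0.80), Nsf, the ATPase that takes SNARE complexes apart, stood at 0.35 and Cplx2 at 0.34, while the SNARE gene Stx1a stood at −0.49. Of 43 ion channel genes 32 were positive and 0 called, among them Kcna2 (0.49), while the calcium channel gene Cacna1h stood at −0.93.

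Cytosolic ribosomal protein genes and mitochondrially encoded genes had their highest sums in control mouse 5. Of 76 ribosomal protein genes 0 were called and 69 were negative, with a median of −0.23, or −0.06 without control mouse 5. An unadjusted p under 0.05 was reached by 3 of them (Rpl35, Rplp0 and Rps16), or 3.95%, against 5.23% of all genes. Their summed FPKM was 7215 to 7976 in hM3Dq IPs and 6241 to 20037 in control IPs. All 8 mitochondrially encoded genes tested were negative and 0 were called, with a median of −0.76, or −0.29 without that mouse. mt-Nd1 had 55.0, 80.1, 16.1 and 13.4 FPKM in hM3Dq IPs, against 263 in control mouse 5 and 26.7 to 110 in the other control IPs. Of 31 heat shock and endoplasmic reticulum stress genes 0 were called and 11 were positive, with Chac1 (described above) on the higher side and Hspb8, a small heat shock protein, on the lower (−0.72).

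**Figure D5:**
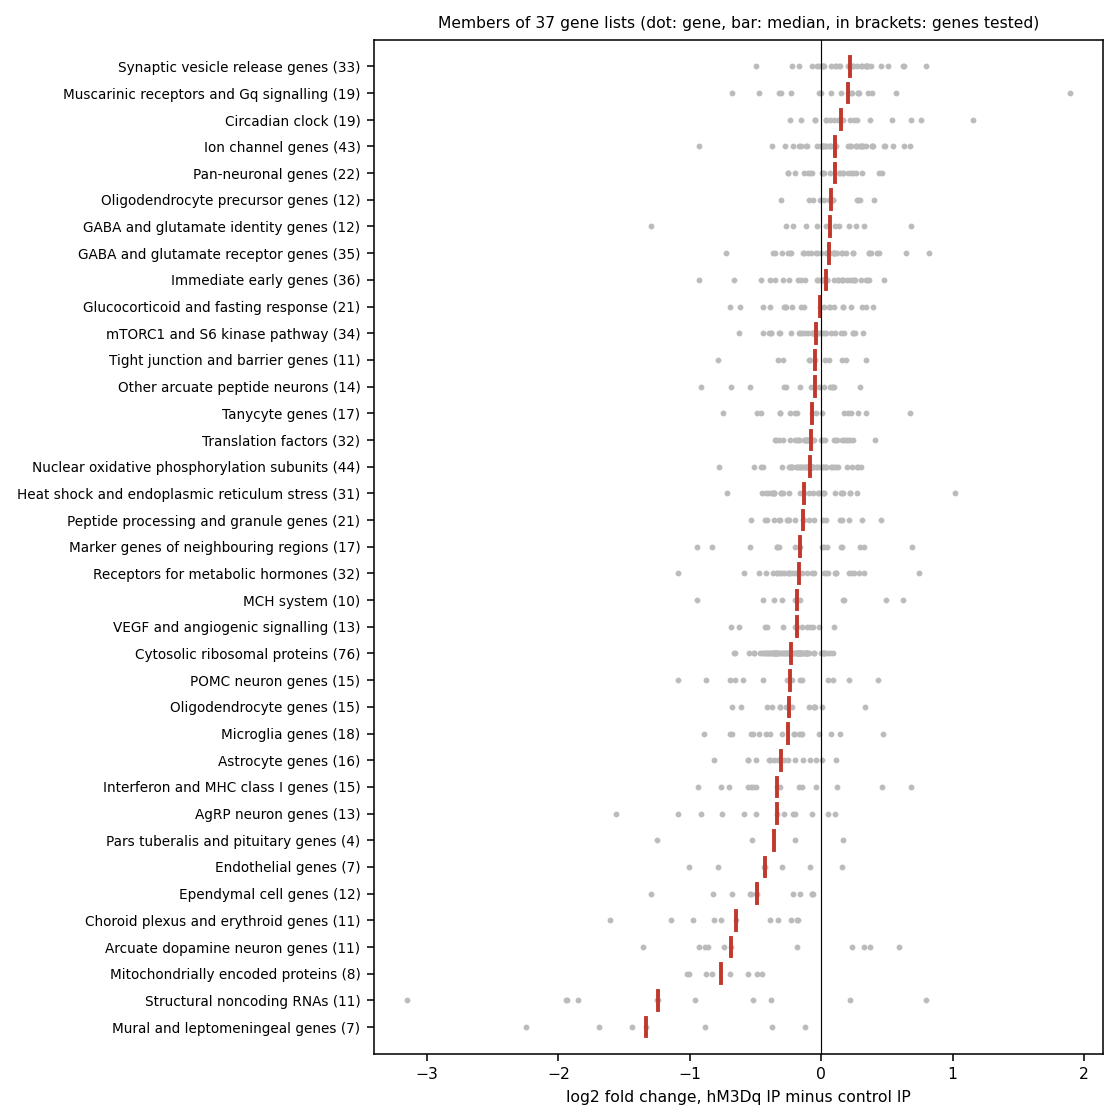
Log2 fold change, hM3Dq IP minus control IP, of the tested members of 37 gene lists, with a dot for each gene and a bar at the list's median. The medians run from −1.33 for mural and leptomeningeal genes to 0.22 for synaptic vesicle release genes.

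The SE of a log2 fold change had a median of 0.262 (interquartile range 0.209 to 0.327), from 0.318 for genes with a mean FPKM of 1 to 5 down to 0.171 for those of 100 or more, and the 95% confidence interval had a median half-width of 0.558. In 10425 genes (77.0%) the interval lay wholly between −1 and 1, so a difference of 1 log2 unit or more lay outside it. These intervals are for single genes, unadjusted for the number tested, so they do not show what the test could call. Of 128 genes with a log2 fold change of 1 or more in either direction, 1 was called. Smaller differences were not detectable for many genes. The number of reads is unknown. Depth relative to the mean of the 11 IPs, read from the steps of single reads among low values, ran from 0.821 to 1.16.

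Among the IPs, control mouse 5 stood apart with 1515 genes at 0, a mitochondrially encoded share of 0.642% of summed FPKM and a median correlation of 0.879 with the other control IPs. Genes at 0 averaged 316 ± 37 in hM3Dq IPs and 643 ± 427 in control IPs (SD, n = 4 and 7, two-sided exact permutation test, p = 0.118, adjusted over 8 library measures 0.473). The smallest p of these measures was that of the third principal component, an axis holding 10.8% of the variance among the IPs. It ran from −33.7 to −8.83 in hM3Dq IPs and from −10.6 to 38.7 in control IPs (same permutation test, p = 0.00909, adjusted 0.0727). The same contrast in the input called 0 of 13512 genes by limma, with 613 (4.54%) at an unadjusted p under 0.05. The per-mouse difference between IP and input called 0 of 13531, with 423 at an unadjusted p under 0.05.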

How the data were processed

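RNA of the pS6 IP and input of each mouse had been sequenced, and the values include noncoding RNAs such as Rn7sk. The authors deposited 1 table of normalized FPKM for 17440 genes, per the file headers, and HISAT2 2.1.0 and StringTie 1.3.4d with build GRCm38.p6 are named in the submitters' processing notes. How the FPKM were normalized is not given in the sources used here, and neither are read counts.

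From the 11 IP columns, genes reaching an FPKM of 1 in 4 or more of them were tested as log2(FPKM + 1) with limma 3.58.1 (lmFit, eBayes with trend, two-sided, Benjamini-Hochberg over all genes tested) in R 4.3.3. Fold changes on this scale understate those of low genes. Mice with the same number in the 2 genotypes are different animals, and same-numbered mice did not deviate together (correlations −0.123 to 0.0529), so samples were not paired. Genes were annotated and small RNA sequences taken from GENCODE M21, to which 13527 of the 13531 genes matched. Figures were drawn with matplotlib 3.10.9, and the fit was tested on simulated data.

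The members and lists were chosen with earlier results of these data known. Genes were named if called, if among the 10 smallest unadjusted p-values in a direction averaging 5 FPKM or more in whichever group was higher and with a settled symbol, if on a list of 24 genes for the system studied, if among the 10 most variable, or if among the 4 smallest p-values of 1 of 37 gene lists. Other genes were named after their values were seen: the small nucleolar and Cajal body RNAs, Bud23, Gm48573, and members of the lists named for their role.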

Additional observations from a re-analysis of the deposited data

Results flagged for a closer look

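In 212 groups of IP values, those of genes named here and of library measures, a single mouse far from the rest of its group was looked for. The test flagged 19, and 10 of these were in control mouse 5. Chance flags about 1 in 20 among groups chosen without regard to their values. Some of these genes were named for a large spread or after their values were seen, so that rate does not apply here. On the log2(FPKM + 1) scale, control mouse 5 was high for Rps6 (7.94, the next control 7.17), Rplp0 (5.68, next 5.14), Rps16 (6.91, next 5.97), Cacnb4 (5.57, next 5.13), the thalamic gene Tcf7l2 (7.02, next 5.64) and Apex2, a DNA repair nuclease (6.56, next 2.70). It was low for Fos (1.90, next 3.14), for Hdc (1.60, next 3.23) and for Gphn, the gephyrin scaffold of inhibitory synapses, listed at 0 there while the next control stood at 4.94. Its mitochondrially encoded share was 0.642% of summed FPKM, the next control 0.147%. Without that mouse the log2 fold change of Fos was 0.10.

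hM3Dq mouse 3 was low for the early genes Fos (3.21, next 3.88) and Fosb (2.14, next 3.16) and high for Gphn (5.89, next 5.45) and Kcna1 (5.16, next 3.90). Scarna2 was highest in hM3Dq mouse 4 (2.12) and Gm22009 in hM3Dq mouse 1 (2.14). Chac1 was lowest in hM3Dq mouse 4 (3.08, next 3.15). Ttr in control mouse 1 (10.8) and Gm26397 in control mouse 3 (0) completed the flags.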

How the results depend on the processing

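The count of called genes, 1 in the comparison as reported, was 0 with a pseudocount of 0.1 or 5, without the filter on low values, without the eBayes trend, with an unequal-variance test per gene, with the replicate block, and without control mice 1, 4 and 5 together, an alternative added after seeing the data. It was 6 with array weights, all 5 beyond Gm25492 being Gm25776, Ccnb1ip1, Gm48573, Nnat and Gm22504, and 3 in 1 fit of all 22 libraries (Gm25492, Gm25776 and Ccnb1ip1). Leaving out 1 mouse at a time gave 0 to 2. Gm25492 was called without hM3Dq mouse 5, control mouse 3 or control mouse 5, and without control mouse 6 the 1 called gene was Nnat. Quantile normalization, an equal sum over nuclear genes, centring on the median, a filter at an FPKM of 5, robust eBayes and leaving out hM3Dq mice 3 and 5 (added after seeing the data) kept the count at 1, and the gene was Gm25492. Centring moved the median of all genes to 0.048. The replicate block pairs mice that share only a number, and it gave 777 genes at an unadjusted p under 0.05 against 707. Input and IP over input gave 0 called genes in each alternative run. Among the log2 fold changes of 103 genes, 15 values lost a call, all of Gm25492, and 10 gained one, while 0 called values changed sign. Depth and the unknown read numbers limit low genes most, with a median SE of 0.318 at 1 to 5 FPKM.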
